A study of Mus musculus with 2 samples.

Results

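The 10 genes described here are the insulin-like growth factors *Igf1* and *Igf2*, their receptors *Igf1r* and *Igf2r*, and the binding proteins *Igfbp2* to *Igfbp7*. They were found by their gene symbol in the annotation of the array, which gave 24 probes of 45281 and 10 genes of 19057. RNA labelled as ovary from C57BL/6 wild-type (WT) mice and from mice homozygous (HOM) for Y123F was measured once per genotype, on an Illumina mouse whole-genome BeadChip with short probes on beads. Y123F is a knock-in allele of the leptin receptor, on a C57BL/6 background, in which phenylalanine replaces Tyr985, Tyr1077 and Tyr1138 of the long form LepRb, and WT mice came from the same litters. The mice were 12 weeks old. Each array held 1 pool of RNA, from 3 mice or from 6 mice, since the descriptions of the pools differ. The mutation is carried in every tissue, so an effect within the organ cannot be told apart from one through the brain or through body fat.

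IGF-I and IGF-II are small secreted hormones related to insulin. They act through the tyrosine kinase receptor IGF1R, while IGF2R, which is also the mannose-6-phosphate receptor, takes up IGF-II and delivers it to lysosomes. The binding proteins hold most IGF outside cells and release it when proteases cut them. In the mouse ovary *Igf1* is made by granulosa cells of growing follicles and is needed for follicles to become antral, and in the uterus it is made by stroma and induced by estrogen.

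Signals are the deposited background-subtracted intensities, in the scanner's arbitrary units. A probe counted as detected on an array when fewer than 1 in 100 negative control beads were as bright, a detection p-value below 0.01. The dimmest detected probes had signals of 15.1 (WT) and 15.9 (HOM). Ratios are given as log2 HOM/WT after background correction, an added offset of 16 and quantile normalization, so that 1 stands for a 2-fold higher and -1 for a 2-fold lower level on the HOM array. The offset pulls ratios of dim probes toward 0. The brightest probe represented a gene. Brightness depends on the probe, so ratios were formed between arrays and never between genes. Ranks, ranges and sums of signals below describe probes, and a sum rests mostly on its brightest probes. With 1 array per genotype no test was possible, and every ratio describes these 2 pools. As a yardstick for technical spread, the SD of log2 HOM/WT among probes for the same gene was 0.33, taken over 3225 genes.

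The labelled organ was checked against markers. Of 21 ovarian markers with a probe, 4 were detected on both arrays, *Inha*, *Insl3*, *Gdf9* and *Akr1c18*, with signals of 16.7 to 76.4. Those of steroid synthesis, *Star*, *Cyp17a1*, *Cyp11a1* and *Hsd3b1*, were detected on neither. Of 11 uterine markers, 8 were detected on both arrays, as were 7 of 8 smooth muscle and 7 of 7 fibroblast markers. The uterine markers *Hoxa10*, *Hoxd11* and *Emx2* were detected on neither, and *Foxa2*, *Hand2* and *Pgr* were dim, with 22.35 to 40.7. The values below are therefore those of RNA labelled as ovary and may not be readings of ovary. In such bulk RNA, fewer cells of a type and less RNA per cell cannot be told apart.

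In the family, 9 of 10 genes were detected, each of them on both arrays, and none was 2-fold higher or lower on the HOM array. Over all 9817 detected genes, 41 (0.418%) were at least 2-fold higher and 146 (1.49%) at least 2-fold lower, so most genes were within this range. Of those past 2-fold, 78.1% were lower, a share that was 24.5% without scaling (154 higher and 50 lower), 56% in the authors' normalized values and 92.3% with an offset of 50. At 1.5-fold, no member was higher, against 5.27% of detected genes, and 1 member, *Igfbp3*, was lower, against 8.3%. The members' median log2 HOM/WT was 0.27, with 5 values above 0 and 4 below (*Igf1r* and *Igfbp7* moved above 0 without scaling), beside a median of 0.04 over all detected genes. Without scaling the medians were 0.59 and 0.28, because the HOM array was brighter as a whole.

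**Figure D1:**
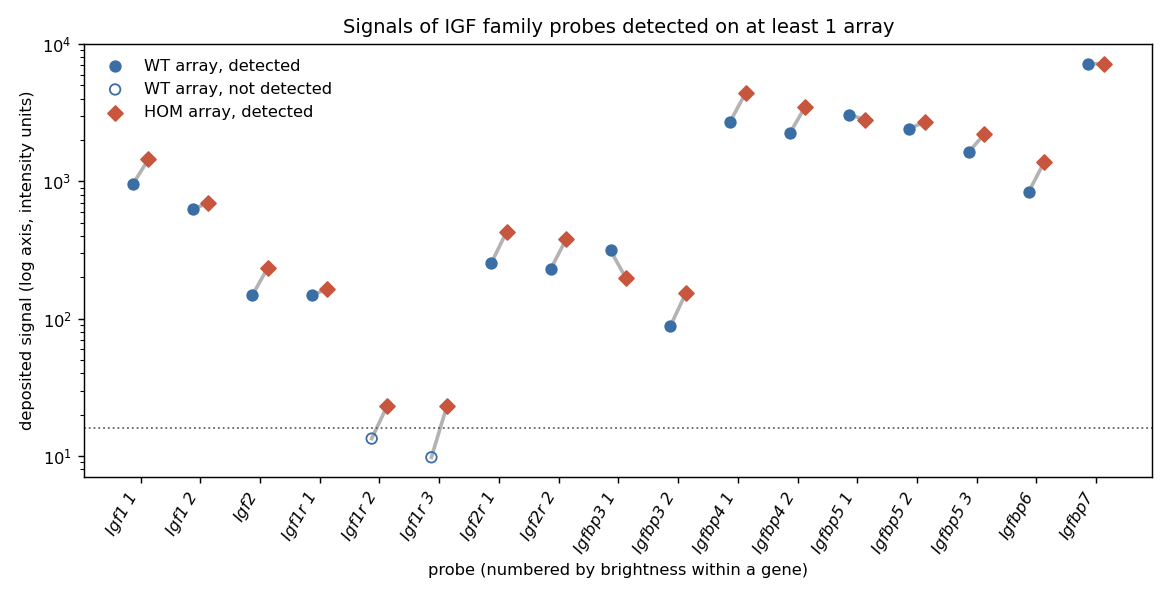
Deposited signal (log axis, intensity units) of the 17 family probes detected on at least 1 array, with the WT array as circles and the HOM array as diamonds joined by a line. Probes of a gene are numbered by brightness, open circles were not detected, and the dotted line marks the dimmest detected signal of the HOM array, 15.9. The first *Igfbp3* probe and the first *Igfbp5* probe slope downward, and the other 15 lines do not.

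Both ligands were detected and had ratios above 1. *Igf1*, whose product is the main growth-promoting IGF after birth, gave 952.5 in WT and 1445 in HOM with its brighter probe, a log2 HOM/WT of 0.27. Its other probe had 628 and 694 and a log2 HOM/WT of -0.17. Both *Igf1* probes were brighter on the HOM array, but the second by less than the array as a whole, and the mean over the pair was 0.05. *Igf2*, an imprinted gene expressed from the paternal copy and known for fetal growth, has 1 probe, with signals of 148 and 235 and a log2 HOM/WT of 0.34. That value is barely larger than the SD of 0.33 between probes of one gene.

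The receptors gave different pictures. *Igf1r*, which carries the growth signal of both ligands, had signals of 149 and 164 with its brightest probe, a log2 HOM/WT of -0.15. The sign of this value was not settled, since it was 0.13 without scaling and 0.19 as the mean over detected probes. The next 2 *Igf1r* probes were near the detection limit, with 13.4 and 9.80 in WT, where they were not detected, and 23.2 in HOM for each. Against the dimmest detected WT probe each was at least 1.15-fold higher in HOM, a bound that makes no allowance for error and, being so near to 1, gives no clear direction. The last probe was not detected on either array. *Igf2r*, the clearance receptor, was brighter on the HOM array with both probes. The first had 253 and 431, and the second had 232 and 382. Their log2 HOM/WT of 0.43 and 0.39 differed by 0.040, a difference larger than in only 7.25% of the 2703 genes with several probes detected on both arrays. In mice *Igf2r* is imprinted as well, expressed from the maternal copy.

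The binding proteins differed in direction and in how well their probes agreed. *Igfbp4*, the carrier that the protease PAPP-A cuts in growing follicles, had signals of 2718 and 4392 with one probe and 2242 and 3500 with the other. Its log2 HOM/WT values of 0.41 and 0.38 differed by 0.034. *Igfbp6*, which prefers IGF-II over IGF-I, has 1 probe, with 837 and 1382 and a log2 HOM/WT of 0.40. These ratios of *Igfbp4* and *Igfbp6*, with that of *Igf2r*, were the highest of the family and lay within 0.04 of each other. At 1.35-fold for *Igf2r*, 1.33-fold for *Igfbp4* and 1.32-fold for *Igfbp6* they were below the 1.5-fold mark, and the log2 HOM/WT of *Igf2r* was higher than that of 86.9% of detected genes.

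*Igfbp5*, a carrier that also binds extracellular matrix, gave a graded set of values over 3 bright probes. The brightest had 3062 in WT and 2815 in HOM, a log2 HOM/WT of -0.38. The next had 2406 and 2724 (-0.11), and the dimmest had 1646 and 2211 (0.11). The sign thus depended on the probe, and the mean over the 3 probes was -0.13. *Igfbp7*, a relative that binds IGF weakly and is known from blood vessels and smooth muscle, had nearly equal signals of 7180 and 7200. Its log2 HOM/WT was -0.20 after normalization and 0.00 without scaling, and its 4 other probes were not detected on either array. *Igfbp2* was the one member not detected, with signals of 0.493 and 13.5 on its brighter probe and 3.02 and 4.68 on the other, so no fold is given. At a detection p-value below 0.05 its brighter probe would count as detected on the HOM array alone.

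*Igfbp3*, the main IGF carrier of blood, had the lowest ratio and the least agreement between probes. One probe gave 314.5 in WT and 196 in HOM, and the other gave 88.3 and 154. The first was thus dimmer and the second brighter on the HOM array, with log2 HOM/WT of -0.93 and 0.44. These opposite values differed by 1.37, more than in 98.9% of the 2703 genes with several probes detected on both arrays, where the median difference was 0.30. The difference between the *Igfbp3* probes was 1.17 to 1.49 over the background corrections and scalings tried, with opposite signs under each of them. Both probes were well above background, as the dimmer was brighter than 49.8% of detected probes in WT and 60.4% in HOM. The mean over the pair was -0.24, and the gene reached 2-fold with its brighter probe only after cyclic loess scaling. Where on the transcript each probe lies is not given in the sources used here, so whether they read the same transcripts was not tested.

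**Figure D2:**
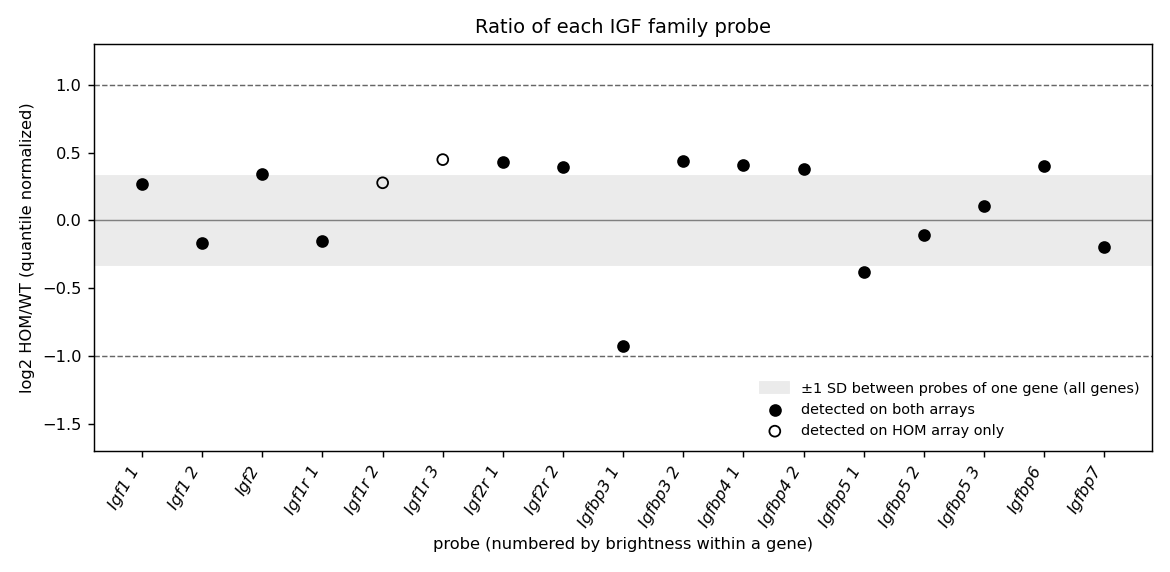
Log2 HOM/WT (vertical axis, quantile normalized) of each family probe detected on both arrays (filled) or on the HOM array only (open), numbered by brightness within a gene. The grey band is 1 SD (0.33) of the ratios between probes of one gene, the dashed lines mark 2-fold, and no point reaches them. The 2 probes of *Igfbp3* lie at -0.93 and 0.44.

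**Figure D3:**
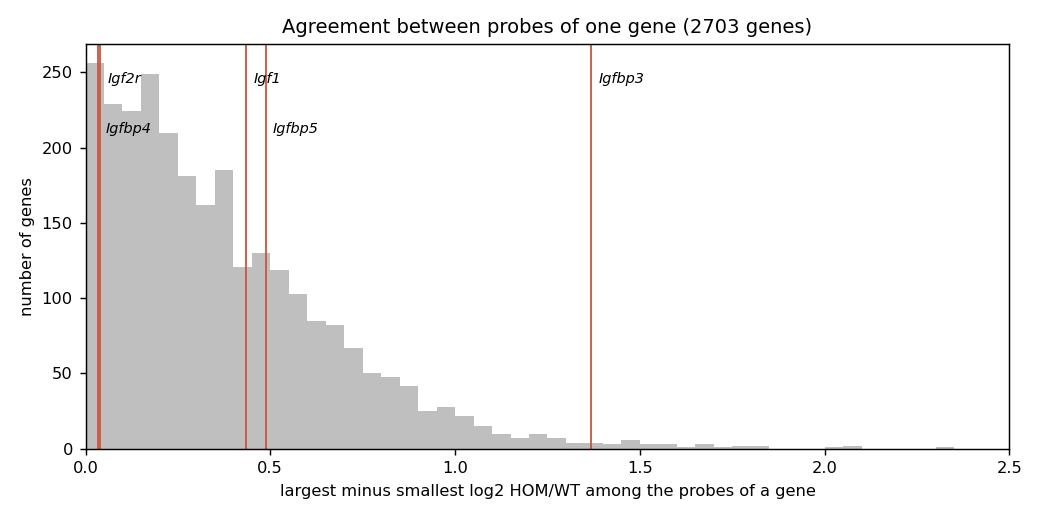
Number of genes (vertical axis) by the difference between the highest and lowest log2 HOM/WT of their probes (horizontal axis), for 2703 genes with several probes detected on both arrays. Red lines mark family genes, with *Igfbp4* at 0.034 and *Igf2r* at 0.040 near 0 and *Igfbp3* at 1.37 far to the right.

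From highest to lowest, the ratios ran *Igf2r*, *Igfbp4*, *Igfbp6*, *Igf2*, *Igf1*, *Igf1r*, *Igfbp7*, *Igfbp5* and *Igfbp3*. A difference between the ratios of 2 probes has an SD of 0.47 by the technical yardstick. Of the 8 steps between neighbours only the last, 0.55 between *Igfbp5* and *Igfbp3*, was larger, and the second *Igfbp3* probe does not share it. The step from *Igf1* to *Igf1r*, across 0, was 0.42, below that SD. The other steps were at most 0.18, so the order of neighbours above *Igfbp3* is not resolved by these arrays.

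**Figure D4:**
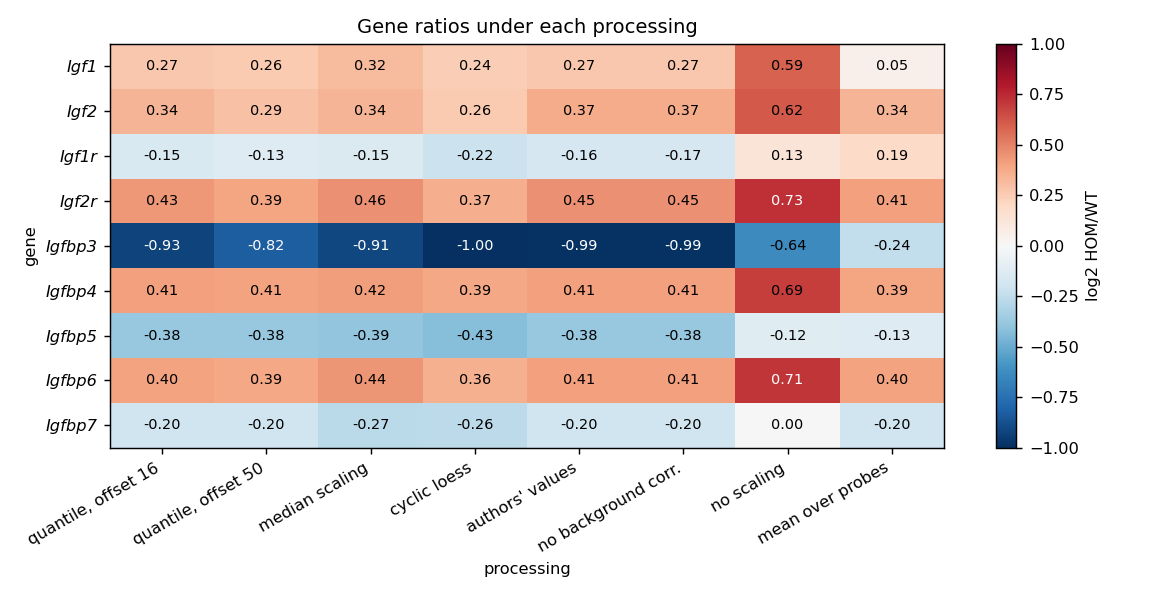
Log2 HOM/WT (number and colour) of the 9 detected family genes (rows) under 8 ways of processing (columns). *Igf2*, *Igf2r*, *Igfbp4* and *Igfbp6* stay between 0.26 and 0.73, *Igfbp3* stays below 0, and *Igf1r* is at -0.15 after quantile normalization with an offset of 16 and 0.13 without scaling.

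Promoter sequences are shown for the 3 genes with the highest ratios, which were nearly the same, and for *Igfbp3*, lowest by its brighter probe. This choice rests on an order that the arrays do not resolve above *Igfbp3*. The dimmer *Igfbp3* probe had 0.44, above the 0.43 of *Igf2r*. The RefSeq tables (GRCm38.p6) held 14 start windows for the 10 genes, 4 of them for *Igf2* and 2 for *Igfbp2*, and the 250 bases before each start were searched on both strands. The motifs were the STAT motif TTCNNNGAA, to which the factors recruited by LepRb can bind, the TATA box TATAAA, the GC box GGGCGG, the CCAAT box and the E-box CACGTG. The last 100 bases before the start are printed 5′ to 3′ in the direction of the gene, with motif matches in capitals. The stretches are chr17:12769707-12769806 on the minus strand for *Igf2r*, chr11:99041144-99041243 on the plus strand for *Igfbp4*, chr15:102144086-102144185 on the plus strand for *Igfbp6* and chr11:7213924-7214023 on the minus strand for *Igfbp3*.
Igf2r: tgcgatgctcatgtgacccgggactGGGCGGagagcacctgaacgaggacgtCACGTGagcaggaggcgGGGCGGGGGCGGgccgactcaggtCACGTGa
Igfbp4: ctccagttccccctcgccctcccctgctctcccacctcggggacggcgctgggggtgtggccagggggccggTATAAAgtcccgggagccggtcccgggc
Igfbp6: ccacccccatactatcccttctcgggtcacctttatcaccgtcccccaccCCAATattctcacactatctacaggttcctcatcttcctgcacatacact
Igfbp3: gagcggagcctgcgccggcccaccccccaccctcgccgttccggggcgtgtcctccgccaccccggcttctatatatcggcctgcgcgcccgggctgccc

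In these 100 bases *Igf2r*, *Igfbp4* and *Igfbp6* had no motif common to all 3. In the 250 bases searched *Igfbp4* and *Igfbp6* both held a TATA box, that of *Igfbp6* 148 bases before the start and on the other strand. *Igf2r* held 3 GC boxes, of which 2 adjoin, and 2 E-boxes and no TATA box. *Igfbp4* held a TATA box that begins 28 bases before the start and nothing else. *Igfbp6* also held CCAAT boxes 107 and 50 bases before the start. The *Igfbp3* stretch held none of the 5 motifs as spelled, and its run tatatat is not a match to TATAAA. Other spellings of a TATA box were not searched. The STAT motif was in 0 of the 14 family windows, and in 7.02% of all 32851 windows of the same length. Among the family windows, GC boxes were in 6 (32.7% of all windows), CCAAT boxes in 3 (33.8%), TATA boxes in 2 (12.4%) and E-boxes in 2 (6.02%). A match is a run of letters and no evidence of binding.

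Of 63 further genes of the pathway, 55 had a named probe and 36 were detected, 34 of them on both arrays. None was 2-fold higher and 1, *Esr1*, was 2-fold lower on the HOM array, against 0.418% and 1.49% of all detected genes. Their median log2 HOM/WT was -0.07, with 16 values above 0 and 20 below. *Esr1*, the estrogen receptor through which estradiol induces *Igf1* in the uterus, had signals of 374 and 161 on the 1 of its 4 probes that was detected. Its log2 HOM/WT of -1.44 was among the lowest 0.153% of detected genes and stayed between -1.54 and -1.14 over the processing alternatives.

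Genes that set the amount of free IGF differed in sign. *Adam12*, a metalloprotease that cuts IGFBP3 and IGFBP5, had signals of 55.1 and 136 and a log2 HOM/WT of 0.86, higher than 99.1% of detected genes, and it passed 2-fold without scaling (1.10). *Stc1*, a stanniocalcin, of the family that inhibits the PAPP-A proteases, had 104 and 68.2 (-0.76). The protease *Pappa* itself had 32.8 and 41.7 (0.05), and *Stc2* had 48.8 and 61.5 (0.05). The gelatinase *Mmp2* had 3190 and 4795 (0.34), and the lysosomal protease *Ctsd* had 90.5 and 72.4 (-0.50). Of 8 such genes detected, 5 had values above 0 and 3 below.

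Of 27 genes of the insulin receptor and the signalling chain, 18 were detected. With the brightest probe none was past 1.5-fold, against 5.27% of all detected genes higher and 8.3% lower. Dimmer probes of *Grb10* (-0.96), *Pdpk1* (-0.63) and *Foxo1* (-0.82, detected in WT only) were past 1.5-fold lower, and no dimmer detected probe was past 1.5-fold higher. The brightest probes of these genes had -0.09, 0.01 and 0.32. *Insr*, the insulin receptor, which can pair with IGF1R, had 292 and 251 (-0.48). *Tsc2*, which restrains the growth kinase mTOR, had 502 and 871 (0.46), and *Rheb*, the GTPase that TSC2 inhibits, had 768 and 667 (-0.52). *Rictor*, a subunit of the mTOR complex that phosphorylates AKT, had 213 and 174 (-0.54), on 1 of its 9 probes. *Akt1*, with 1 probe and signals of -13.4 and -11.2, and *Akt2*, with 2 probes, were not detected on either array. An undetected probe does not show that an mRNA was absent, as only 1 of 5 *Igfbp7* probes was detected. Of the regulators of *Igf* transcription, the growth hormone receptor *Ghr* had 110 and 99.2 (-0.38) and its feedback inhibitor *Socs2* had 333 and 295.5 (-0.46). *Plagl1*, an imprinted factor that activates *Igf2*, was detected on the HOM array only, just past the limit, with signals of 7.50 and 17.6. *Stat5b*, which mediates growth hormone induction of *Igf1* in liver, was not detected.

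Among other carriers *Igfbp1* and *Igfals*, the acid-labile subunit that joins IGFBP3 in blood, were not detected, and *Kazald1* was detected on the HOM array only, with 7.24 and 17.5. Of the CCN proteins, once counted as low-affinity binding proteins, *Ccn2* (listed as *Ctgf*) had 1952 and 1894 (-0.36), *Ccn4* (listed as *Wisp1*) had 174 and 148 (-0.49) and *Ccn1* (listed as *Cyr61*) had 17.0 and 22.2 (0.07). *Ccn3* and *Ccn5* were not detected. No fold is stated for *Kazald1* and *Plagl1*, which were not detected in WT and barely passed detection in HOM, and their plotted ratios are not bounds.

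**Figure D5:**
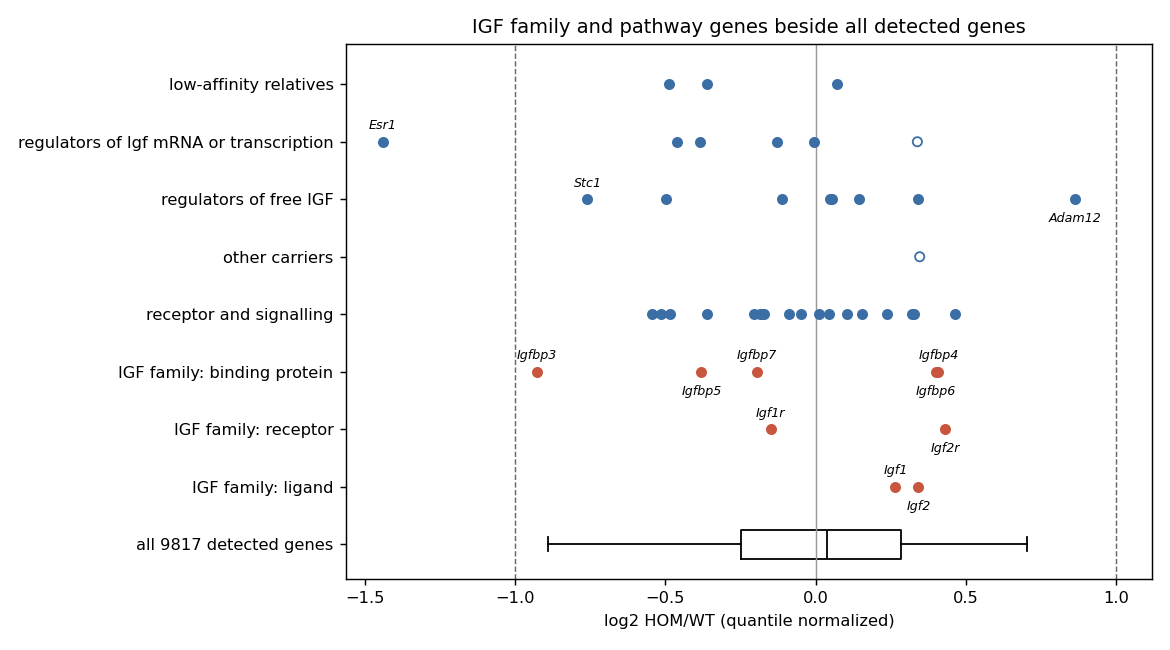
Log2 HOM/WT (horizontal axis) of the family genes (red) and of the other pathway genes by group (blue), with genes detected on the HOM array only as open circles and family genes and those beyond 0.7 named. The box at the bottom holds all 9817 detected genes, with the quartiles as its edges and the middle 95% as its whiskers, and *Esr1* at -1.44 is the one pathway gene beyond the dashed 2-fold lines.

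Markers of the cells that make these proteins did not all move together. All 8 detected uterine markers had a log2 HOM/WT below 0, with a median of -0.36, and the summed signal of the list was 3884 in WT and 3476 in HOM. Values below 0 were common, since *Stat5a* at -0.005 ranked above 45.6% of detected genes. *Hand2* (-0.07), *Foxa2* (-0.08), *Pgr* (-0.13) and *Msx1* (-0.20) were within the SD of 0.33 between probes of one gene. *Hoxd10* (-0.51), *Wnt7a* (-0.59), *Hoxa11* (-1.09) and *Esr1* (-1.44) were beyond it. Without scaling *Msx1*, *Foxa2*, *Pgr* and *Hand2* had values above 0, but all 8 stayed below the median of 0.28 over all detected genes. Not detected in that list were *Emx2* and *Hoxd11*, near 0 on both arrays, and *Hoxa10*, with signals of 10.44 and 11.65. Of 7 fibroblast markers, *Col3a1* (-1.90), *Dcn* (-0.74) and *Pdgfra* (-0.65) were lower and *Col1a1* (0.42) and *Thy1* (0.50) had values above 0, with a median of -0.07 and summed signals of 11528 and 11341. The 21 ovarian markers, 15 of them detected on neither array, had summed signals of 207 and 297 before scaling, and the 6 detected had a median log2 HOM/WT of 0.26, with *Inha* at 0.62. Of 7 epithelial markers 6 were detected, with a median of 0.04 and summed signals of 1810 and 2282, and *Krt7* (0.65) and *Krt19* (0.59) were past 1.5-fold higher. Smooth muscle markers had a median log2 HOM/WT of -0.05 and endothelial markers one of 0.02. Of 7 adipocyte markers only *Lep* was detected, with *Adipoq*, *Plin1* and *Fabp4* at background, and of 5 hepatocyte markers *Ttr* was detected on both arrays, with 187 and 351 (0.57), while *Alb*, *Apoa1*, *Fgb* and *Serpina1a* were at background. The part of these markers in the family's ratios was not tested.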

How the data were processed

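Each genotype was measured once, as 1 RNA pool on 1 Illumina MouseWG-6 BeadChip array. The authors deposited intensities made with GenomeStudio, per the labels, with background subtracted and no scaling between the arrays. A detection p-value, computed from negative control beads, was deposited beside each intensity. A second table of intensities that the authors deposited matched quantile normalization of linear intensities (largest difference 1.57 from the same calculation). The study's methods name BeadStudio and robust multichip analysis, and no version is given in the sources used here.

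Intensities were corrected with limma 3.58.1 (normexp from detection p-values, R 4.3.3), 16 was added, and log2 values were quantile normalized. Of 45281 probes, 34885 had 1 gene symbol, 18 had several and 10378 were not listed. Older symbols were matched through RefSeq gene identifiers. No count of reads underlies an array, and signal over background limits its precision: 32.9% of probes were detected for WT and 34.4% for HOM, with median detected signals of 89.0 and 99.2. The 2-fold rule, with detection on at least 1 array, is one of size.

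The members, lists and rules were chosen with earlier results of these data known. The text names all members, every pathway gene past 2-fold and up to 4 detected genes with the largest ratio per pathway group. *Pappa*, *Stc2*, *Stat5b*, *Akt1*, *Akt2*, *Igfbp1*, *Igfals*, *Ccn3* and *Ccn5* and the markers were added after their values were seen. The alternatives tried were a larger offset (50), omitting background correction (floor 1), median, cyclic loess or no scaling, the authors' normalized values, other detection rules, folds of 1.5 and 3, and the mean over detected probes. Cyclic loess was added after seeing the data.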

Additional observations from a re-analysis of the deposited data

How the results depend on the processing

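Over all detected genes, counts past 2-fold were 4 higher and 48 lower with an offset of 50, 367 and 466 without background correction, 367 and 467 in the authors' normalized values and 154 and 50 without scaling. At 1.5-fold they were 517 and 815, and at 3-fold 0 and 8. Among the members 0 were lower at 2-fold, but *Igfbp3* was (1 gene) after cyclic loess scaling and at 1.5-fold. Of the other pathway genes, 2 (*Adam12*, and *Kazald1*, not detected in WT) were higher without background correction and in the authors' normalized values (2), and 1 (*Adam12*) without scaling and at 1.5-fold (1). At 1.5-fold 2 pathway genes were lower, and at 3-fold 0 were. The cause was not tested, beyond the change in the threshold itself. The medians of the members (0.19 to 0.59) and of the pathway genes (-0.13 to 0.20) moved by less than the SD between probes of one gene. That SD is one of single probes and not of a median, so it does not show that the medians were stable. Without scaling the members' median rose from 0.27 to 0.59 and that of the pathway genes changed sign. The median over all detected genes rose from 0.04 to 0.28. For single genes 248 values were compared, and many of them could not move. The brightest probe was chosen without regard to detection, so the other detection rules left its ratio unchanged. The mean over detected probes also changed nothing where the brightest probe was the only one detected. Of the 248 values, 242 moved by less than the SD between probes of one gene, or not at all, and 6 by more. These were *Igfbp3* (-0.24) and *Igf1r* (0.19) as the mean over detected probes, and *Kazald1* and *Plagl1*, near the detection limit, without background correction and in the authors' normalized values. No replicate could be left out, and no paired analysis was possible because each genotype has 1 array. Dim probes such as the dimmer ones of *Igf1r* and those of *Igfbp2* are limited by signal over background.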
